A study of Homo sapiens and Mus musculus with 16 samples.

Results

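Translation initiation factor genes were taken as every gene symbol that starts with EIF1 to EIF6, leaving out EIF4ENIF1 and EIF1AY. The rule found 58 of the 22286 genes in the human count table and, ignoring case, 54 of the 15881 genes in the mouse table. Of the 58 human symbols, 53 were protein-coding genes and 5 were noncoding (EIF1AX-AS1, EIF1B-AS1, EIF2AK3-DT, EIF3IP1 and EIF3J-DT). The coding genes fell into EIF1 (4 human and 5 mouse genes), EIF2 (6 and 6), EIF2B (5 and 5), the EIF2AK kinases (4 and 4), EIF3 (14 and 14), EIF4 (12 and 12), EIF4EBP (2 and 3) and EIF5 with EIF6 (6 and 5). The study compared which transcripts P-bodies hold in each cell type. It lysed cells that express LSM14A, a P-body protein, fused to GFP, sorted the fluorescent particles and sequenced their RNA beside the RNA of the cytoplasmic fraction taken before the sort, which therefore still contained P-bodies. Per the study's methods, that fraction was the resuspended pellet of a spin of the lysate after nuclei had been removed. Cytoplasm below means this pellet, and RNA left in the supernatant was not measured. There were 16 libraries, with 2 P-body and 2 cytoplasm libraries in each of 4 cell types. UCLA4 human embryonic stem cells were differentiated into liver bud progenitors and into neurons (day 20), HEK293T cells derive from human embryonic kidney, and the mouse embryonic stem cells (mESC) were KH2 cells grown in serum with LIF.

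All groups carried the LSM14A-GFP fusion (HEK293T-LSM14a-GFP, UCLA4-LSM14a-GFP and KH2-LSM14a-GFP), and no line without it was analysed here. Per the study's methods the construct sat at the AAVS1 locus in UCLA4 cells and came from a lentivirus in HEK293T and mESC. The labels give total RNA for HEK293T and mESC and polyA RNA for both UCLA4-derived cell types, so cell type and library kind cannot be told apart where HEK293T or mESC are set beside the other cells. The labels do not say that replicates came from separate cultures. The study's reporting summary states that its sequencing assays had at least 2 biological replicates, without naming these libraries. By the labels alone, the p-values measure the spread between 2 libraries per group, which may be technical. Because these are bulk samples, fewer cells of a type and less RNA per cell cannot be told apart.

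Initiation factors bring the small ribosomal subunit to an mRNA, find the start codon and join the large subunit. The eIF4F complex (eIF4E on the cap, the scaffold eIF4G and the helicase eIF4A) recruits eIF3, which is bound to the small subunit, while eIF2 carries the initiator tRNA and is recharged with GTP by eIF2B. Phosphorylation of the alpha subunit of eIF2 by the EIF2AK kinases blocks that recharging, and the 4E-binding proteins keep eIF4E from eIF4G. P-bodies are cytoplasmic condensates that hold mRNAs that are not being translated, so the position measured here is that of the mRNAs that encode these factors and not that of the proteins.

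Libraries held 6368953 to 17972284 counts, so 3 counts, taken as the floor of detection, corresponded to 0.167 to 0.471 CPM (counts scaled to a common library total), which covers counting error only. Initiation factor genes took 0.591 to 1.22% of the counts of a library. Across genes, Spearman's rho between replicates was at least 0.986 in 7 of 8 groups and 0.945 in neuron P-bodies. The share of counts in ribosomal RNA genes was lower in P-bodies for all 4 cell types (4.32 to 4.75% against 15.9 to 16.6% in HEK293T, 12.5 to 12.8% against 20.4 to 21.1% in liver bud progenitors, 11.4 to 13.4% against 21.5 to 24.9% in neurons and 3.09 to 3.16% against 9.63 to 11.0% in mESC). All 8 liver bud, all 7 neuron and all 6 mouse embryonic stem cell markers reached a mean of 1 CPM in both fractions of their own cells. Of the liver bud markers, 4 also reached it in HEK293T P-bodies and 3 in neuron P-bodies. Their sum in P-bodies did not set liver bud progenitors (228 to 235 CPM) apart from HEK293T (220 to 221) or neurons (252 to 253). In cytoplasm the sum was 409 to 416, 111 to 118 and 59.2 to 66.2 CPM in the same order. The P-body sum rested mostly on PROX1 in neurons (mean 244.7 CPM) and on TBX3 and PROX1 in HEK293T (129.5 and 79.99). Both genes were lower in liver bud P-bodies (14.05 and 15.79 CPM), except that TBX3 of neurons was lower still (0.649). FOXA1 was also higher in HEK293T. APOB (119.99 CPM), HNF4A, AFP and FOXA2 were higher in liver bud P-bodies than in both other cell types, with no test. Liver bud libraries also held 840.3 to 1168 CPM summed over 4 pluripotency markers, and neuron libraries 369 to 765 CPM over 4 neural progenitor markers. Nuclear RNAs (3 listed) summed to less in P-bodies than in cytoplasm of liver bud progenitors (1023 to 1081 against 2449 to 2501 CPM) and neurons (441 to 537 against 889 to 1051) and to more in HEK293T (525 to 543 against 341 to 366) and mESC (667 to 676 against 603 to 612). Single genes did not all follow these sums. Neat1 was lower in P-bodies of mESC (mean 9.19 against 31.3 CPM), and NEAT1 in neurons had 35.8 against 28.5 CPM, uncalled. The part of these cells and RNAs in the results was not tested.

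The mRNAs of factors that act together in a single complex did not move together. EIF4E, the cap-binding subunit of eIF4F, was enriched in P-bodies of all 4 cell types, while EIF4G1, the scaffold of the same complex, was depleted in all 4. Of 47 symbols tested in all 4 fits, 8 were enriched in every cell type (EIF2A, EIF2AK2, EIF2S1, EIF2S2, EIF3A, EIF4B, EIF4E and EIF5B) and 2 were depleted in every cell type (EIF3C and EIF4G1). Another 9 were called in opposite directions in different cell types (EIF2B1, EIF3E, EIF3F, EIF3H, EIF3K, EIF3M, EIF4A2, EIF4G2 and EIF4G3). Of all 12616 symbols tested in the 4 fits, with mouse symbols matched in upper case, 10.2% were enriched in every cell type, 5.26% were depleted in every cell type and 14.4% were called in opposite directions. A gene was called enriched or depleted where the P-body to cytoplasm difference had an adjusted p under 0.05 in edgeR's quasi-likelihood test, with no minimum fold. DESeq2, RLE size factors, library size only and a fit without ribosomal RNA genes were tried beside it. Calls lost under at least 1 of these were EIF2B2, EIF2B3, EIF2S3 and EIF3CL in HEK293T, EIF1, EIF3G, EIF3J-DT, EIF4G2 and EIF4G3 in liver bud progenitors, EIF3CL, EIF3K, EIF4A2, EIF4G2 and EIF6 in neurons, and Eif1ad, Eif2ak1, Eif2b1, Eif2b4, Eif2d, Eif2s3x and Eif4b in mESC. All other calls were made under each.

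HEK293T P-bodies were depleted of initiation factor mRNAs more often than enriched, with 14 of 58 members enriched and 29 depleted, where 19.3% of all genes tested were enriched and 22.8% depleted. Liver bud progenitors had the opposite balance, with 25 enriched and 7 depleted beside 21.4% and 17.1% of all genes. In neurons 11 members were enriched and 13 depleted (all genes 14.6% and 14.1%), and in mESC 20 and 16 of 54 (all genes 25.8% and 20.6%). All genes tested, here and below, are those with any count in a fit, and many are too low to be called. In HEK293T 12836 of 21903 had a mean of at least 1 CPM, as had 52 of 53 coding members. The shares of all genes are therefore not matched to the members for level. The median log2 change of the members was -0.30, 0.25, -0.05 and 0.05 in HEK293T, liver bud progenitors, neurons and mESC, beside -0.01, -0.09, 0.19 and -0.11 over all genes tested. The median of neurons was 0.01 with RLE size factors. With library size only the medians of the members were -0.43, 0.06, 0.12 and -0.35 in the same order. Scaling by library size alone gave 22 enriched and 11 depleted members in liver bud progenitors, 15 and 9 in neurons and 15 and 28 in mESC. A fit of all 12 human libraries called 12 members enriched and 25 depleted in neurons, and without replicate 1 of the neuron P-bodies 20 were depleted.

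**Figure D1:**
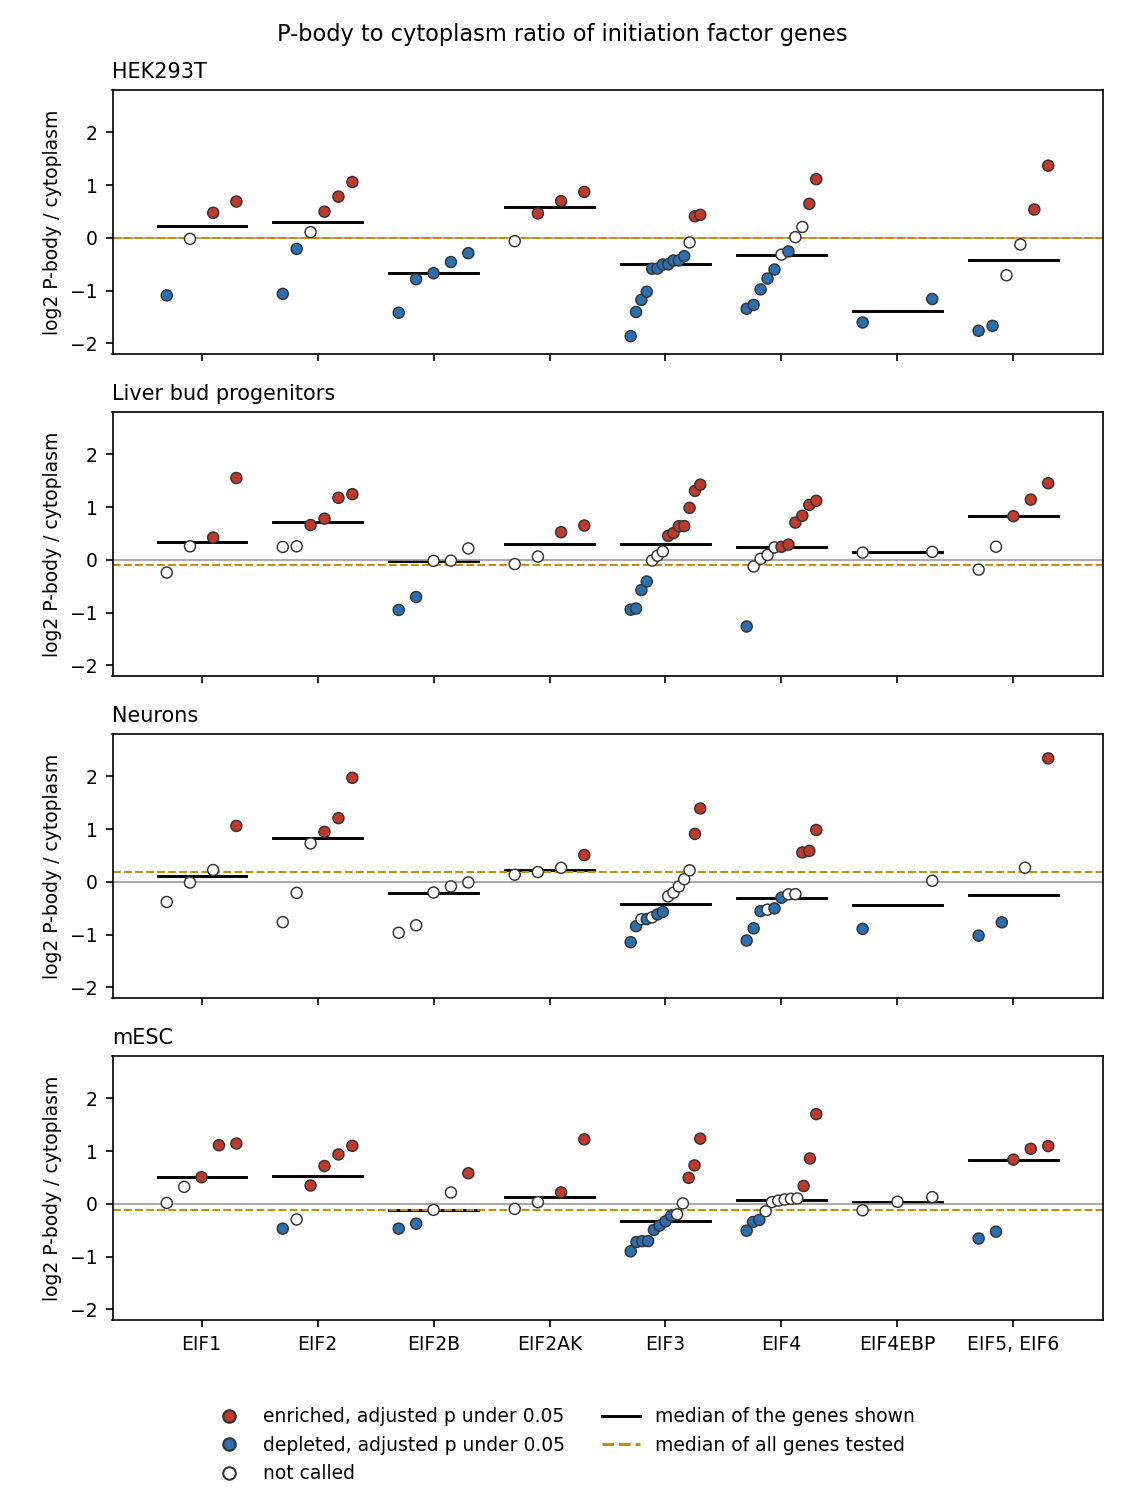
Log2 P-body to cytoplasm ratio (vertical axes) of each coding initiation factor gene with a mean of at least 1 CPM, by group, in HEK293T, liver bud progenitors, neurons and mESC, with filled points called at an adjusted p under 0.05. Black bars mark the median of the genes shown and dashed lines that of all genes tested. All 5 EIF2B genes lie below 0 in HEK293T, EIF3 spans both sides of 0 in every cell type, and the Eif3j1 gene of mESC is left out because its cytoplasm libraries held 0 counts.

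Levels below are CPM after TMM scaling within a cell type, given as both P-body libraries against both cytoplasm libraries, and changes are log2 ratios of P-body to cytoplasm with their SE. Fractions did not overlap for 50 of 58 members in HEK293T, 43 in liver bud progenitors and 44 in neurons, and for 44 of 54 in mESC. The same held for 64.8%, 64.1%, 65% and 73% of all genes tested, so a lack of overlap was common. Among the factors that keep the scanning ribosome open, EIF1AX, which encodes eIF1A, was enriched in the 3 human cell types. It had 646 and 687 against 512 and 447 CPM in HEK293T (log2 0.47 ± 0.06, edgeR adjusted p = 6.9e-11) and 638 and 597 against 218 and 204 CPM in liver bud progenitors (log2 1.55 ± 0.06, edgeR adjusted p = 3.3e-33). In neurons its libraries held 57.8 and 75.8 against 27.8 and 36.4 CPM (log2 1.06 ± 0.19, edgeR adjusted p = 7.6e-04). The P-body libraries lay above the cytoplasm libraries each time, and the liver bud value was the highest of any called initiation factor gene above 20 CPM in those cells. In mESC the call fell on Eif1a (log2 1.11 ± 0.05, edgeR adjusted p = 1.2e-15), and Eif1ax had 33.3 and 31.4 against 32.2 and 31.8 CPM, with fractions that overlapped. EIF1, which guards start codon choice, was enriched in liver bud progenitors (log2 0.42 ± 0.10) and in mESC (1.14 ± 0.07), and was not called in HEK293T (-0.02 ± 0.06) or neurons (-0.01 ± 0.15). EIF1AD, whose protein carries an eIF1A-like domain, was enriched in HEK293T (0.69 ± 0.08) and mESC (0.51 ± 0.10) and not called in the other cells.

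The eIF2 trimer split by subunit. EIF2S1, the alpha subunit that the stress kinases phosphorylate, and EIF2S2, the beta subunit, were enriched in all 4 cell types, while EIF2S3, the gamma subunit that binds GTP and the initiator tRNA, was not. EIF2S1 had 92.8 and 91.9 against 69.4 and 61.6 CPM in HEK293T and 55.7 and 56.1 against 26.9 and 22.8 CPM in liver bud progenitors. Neurons gave 36.7 and 51.2 against 10.9 and 11.6 CPM and mESC 104 and 95.1 against 58.6 and 62.7 CPM of the same gene. No P-body value fell among the cytoplasm values, and the change ranged from 0.49 ± 0.08 in HEK293T (edgeR adjusted p = 6.7e-07) to 1.97 ± 0.23 in neurons (adjusted p = 2.3e-05). EIF2S2 changed by 1.06 ± 0.05, 0.78 ± 0.06, 0.95 ± 0.16 and 0.94 ± 0.04 in HEK293T, liver bud progenitors, neurons and mESC.

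EIF2S3 was depleted in HEK293T, at 192 and 197 against 227 and 223 CPM (log2 -0.21 ± 0.06, edgeR adjusted p = 0.0031), and enriched in liver bud progenitors, at 279 and 273 against 175 and 175 CPM (log2 0.66 ± 0.07, edgeR adjusted p = 1.1e-13). The HEK293T call was lost without P-body replicate 1 or cytoplasm replicate 1 (-0.19 to -0.16, adjusted p = 0.053 to 0.075). In neurons it had 79.2 and 81.7 against 92.9 and 93.1 CPM and was not called (log2 -0.21 ± 0.12). The mouse gene Eif2s3x had 248 and 241 against 194 and 189.9 CPM (log2 0.35 ± 0.05), a call that did not hold with library size only, where the value was -0.05. EIF2S3B, a near-identical copy, can share reads with EIF2S3, and summing both gave -0.21, 0.65 and -0.17 in HEK293T, liver bud progenitors and neurons. EIF2A, a separate protein that can deliver initiator tRNA, was enriched in all 4 cell types (log2 0.78, 1.24, 1.21 and 1.10). EIF2D, another tRNA-delivering factor, was depleted in HEK293T (log2 -1.06 ± 0.10) and mESC (-0.47 ± 0.16) and was not called in liver bud progenitors (0.26 ± 0.14) or neurons (-0.76 ± 0.27).

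The EIF2B genes, which encode the exchange factor that recharges eIF2, leaned the other way from EIF2S1 and EIF2S2. All 5 were depleted in HEK293T (median log2 -0.67, from -1.42 to -0.29), although the calls of EIF2B2 and EIF2B3 were among those lost under an alternative. Liver bud progenitors had 0 enriched and 2 depleted, neurons 0 and 0, and mESC 1 and 2 of 5. EIF2B5, the catalytic subunit, had 5.69 and 3.60 against 12.3 and 12.3 CPM in HEK293T (log2 -1.42 ± 0.21, edgeR adjusted p = 3.7e-08) and 5.94 and 6.21 against 12.2 and 11.4 CPM in liver bud progenitors (log2 -0.95 ± 0.24, edgeR adjusted p = 6.8e-04). In neurons it had 4.96 and 6.72 against 10.5 and 12.4 CPM (log2 -0.96 ± 0.35, edgeR adjusted p = 0.058) and in mESC 42.5 and 41.6 against 55.7 and 53.4 CPM (log2 -0.38 ± 0.09, edgeR adjusted p = 0.0011). The cytoplasm libraries lay above the P-body libraries each time, although the neuron difference missed the threshold. EIF2B4 was depleted in HEK293T, liver bud progenitors and mESC, and Eif2b1 was the single EIF2B gene called enriched, in mESC (0.58 ± 0.08, not called with library size only).

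The 4 EIF2AK kinases phosphorylate the alpha subunit of eIF2 in response to different stresses, and none of them was called depleted in any cell type. With library size only, EIF2AK1 was depleted in HEK293T (log2 -0.19), EIF2AK3 in liver bud progenitors (-0.27) and Eif2ak3 and Eif2ak4 in mESC (-0.37 and -0.50). EIF2AK2 (PKR), which senses double-stranded RNA, was the kinase gene enriched in all 4. It had 173 and 172 against 127 and 124 CPM in HEK293T and 155 and 158 against 98.1 and 101 CPM in liver bud progenitors. The neuron libraries held 58.0 and 71.3 against 47.1 and 43.9 CPM and those of mESC 299 and 284 against 133 and 117 CPM of this gene. The fractions did not overlap, and the change was 0.46 ± 0.07, 0.65 ± 0.08, 0.51 ± 0.15 and 1.22 ± 0.06 (edgeR adjusted p = 2.1e-08, 2.8e-11, 0.026 and 3.4e-15). The neuron call was lost without P-body replicate 2 or either cytoplasm library (0.35 to 0.54, adjusted p = 0.071 to 0.21).

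EIF2AK3 (PERK), the sensor of endoplasmic reticulum stress, was enriched in HEK293T alone among the 4 fits, at 78.3 and 88.7 against 49.5 and 42.0 CPM (log2 0.87 ± 0.09, edgeR adjusted p = 2.7e-12). It had 54.5 and 51.3 against 55.1 and 56.7 CPM in liver bud progenitors (log2 -0.08 ± 0.10), 29.7 and 27.3 against 28.0 and 23.9 CPM in neurons (0.14 ± 0.20) and 32.3 and 28.7 against 27.6 and 32.0 CPM in mESC (0.03 ± 0.12). None of these 3 was called. EIF2AK4 (GCN2), which senses uncharged tRNA, was enriched in HEK293T, at 89.5 and 93.3 against 54.5 and 58.5 CPM (log2 0.70 ± 0.08), and in liver bud progenitors, at 149.8 and 138 against 102 and 98.7 CPM (0.52 ± 0.08). Neither the neuron libraries, with 107 and 104 against 91.4 and 93.8 CPM (0.19 ± 0.11), nor those of mESC, with 50.4 and 55.6 against 56.3 and 56.8 CPM (-0.10 ± 0.08), gave a call. EIF2AK1 (HRI), the heme-regulated kinase, had 278 and 249 against 278 and 272 CPM in HEK293T, 162 and 159.7 against 158 and 150.3 CPM in liver bud progenitors and 176 and 209.8 against 158 and 163 CPM in neurons. These changes (-0.06, 0.06 and 0.27) were not called, and the first of them was above 0 with RLE size factors, DESeq2 or a single fit of all human libraries. In mESC Eif2ak1 had 58.3 and 52.9 against 48.7 and 47.1 CPM and was called enriched (log2 0.22 ± 0.09, edgeR adjusted p = 0.045), but gave -0.19 with library size only and was not called without P-body replicate 1 or either cytoplasm library (0.15 to 0.24, adjusted p = 0.061 to 0.35).

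EIF3, the largest initiation factor, held both enriched and depleted members in each cell type. EIF3A, the scaffold subunit, was enriched in all 4 cell types and the loosely bound subunit EIF3J in the 3 human ones. The subunits EIF3B, EIF3G and EIF3I, which sit together at the mRNA entry side of the ribosome, were never enriched. Nor were EIF3C, EIF3D and EIF3L in any cell type, or EIF3CL in the human cells, so this was not particular to those subunits. EIF3 had 2 enriched and 11 depleted genes of 14 in HEK293T, 7 and 4 in liver bud progenitors, 2 and 5 in neurons and 4 and 8 in mESC. Over all genes tested the shares were 19.3% and 22.8%, 21.4% and 17.1%, 14.6% and 14.1%, and 25.8% and 20.6%, in that order. The subunits EIF3E, EIF3H, EIF3K and EIF3M were depleted in HEK293T and enriched in liver bud progenitors.

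EIF3A had 1284 and 1287 against 997 and 939.9 CPM in HEK293T and 1162 and 1159.9 against 736 and 754 CPM in liver bud progenitors. Neurons gave 516 and 516 against 274 and 276 CPM and mESC 1328 and 1319.7 against 959 and 922 CPM for it. The replicates of each fraction lay close together and the fractions apart, with changes of 0.41 ± 0.05, 0.64 ± 0.05, 0.91 ± 0.08 and 0.49 ± 0.04 (edgeR adjusted p = 9.2e-11, 5.8e-19, 2.2e-06 and 1.8e-11). EIF3J had 83.9 and 95.8 against 69.3 and 63.6 CPM in HEK293T (0.44 ± 0.08), 106 and 101 against 39.1 and 44.1 CPM in liver bud progenitors (1.31 ± 0.09) and 36.8 and 40.3 against 16.1 and 13.3 CPM in neurons (1.39 ± 0.21). All 3 were called enriched, with adjusted p from 1.5e-19 to 2.3e-04 in edgeR. The mouse has 2 near-identical genes that can share reads. Eif3j2 had 228 and 157 against 118 and 115 CPM, while Eif3j1 had 0 and 56.6 against 0 and 0 CPM, so that its 2 P-body replicates disagreed. Against a floor of 3 counts per cytoplasm library the mean of Eif3j1 was at least 90.0-fold higher in P-bodies, a bound that rests on P-body replicate 2. Summing both copies gave 0.92 ± 0.05 (edgeR adjusted p = 2.0e-13).

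EIF3C, which forms the core of the complex with EIF3A, was depleted in all 4 cell types. It had 117 and 126 against 154 and 211 CPM in HEK293T and 147 and 124 against 219 and 301 CPM in liver bud progenitors. In neurons the libraries held 85.9 and 138 against 230.2 and 266 CPM and in mESC 229 and 225 against 300.0 and 304 CPM. Cytoplasm exceeded P-bodies in every library pair, with changes of -0.58 ± 0.08, -0.94 ± 0.08, -1.14 ± 0.17 and -0.41 ± 0.05 (edgeR adjusted p = 4.3e-09, 6.4e-16, 2.2e-04 and 4.1e-08). The human genome holds a near-identical copy, EIF3CL, and the split of reads between them is uncertain, but their sum was depleted as well (-0.54, -0.93 and -0.88 in HEK293T, liver bud progenitors and neurons).

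EIF3E and EIF3K were called in opposite directions in different cell types. EIF3E was depleted in HEK293T, at 263 and 278 against 344 and 345 CPM (log2 -0.35 ± 0.06, edgeR adjusted p = 5.5e-07), and enriched in liver bud progenitors, at 871 and 801 against 316 and 307 CPM (log2 1.42 ± 0.05, edgeR adjusted p = 6.1e-33). In neurons both fractions stood at the same level, 68.6 and 68.3 against 63.2 and 69.1 CPM (log2 0.05 ± 0.13), and in mESC Eif3e had 257 and 252 against 115 and 101 CPM (log2 1.24 ± 0.06, edgeR adjusted p = 4.3e-15). The fractions overlapped in neurons and not in the other cells. EIF3K, a peripheral subunit, showed the lowest change of any EIF3 gene, at 34.9 and 30.2 against 112 and 124 CPM in HEK293T (log2 -1.86 ± 0.09, edgeR adjusted p = 1.3e-26). It was depleted in neurons (-0.62 ± 0.17, a call lost under an alternative) and mESC (-0.70 ± 0.07) as well and enriched in liver bud progenitors (0.51 ± 0.12). In mESC the lowest called changes were those of Eif3f, at 33.3 and 34.4 against 59.7 and 66.5 CPM (log2 -0.90 ± 0.09, edgeR adjusted p = 1.1e-08), and Eif3i, at 27.8 and 32.9 against 52.6 and 47.6 CPM (log2 -0.72 ± 0.10, edgeR adjusted p = 2.9e-06). EIF3I was depleted in HEK293T (-1.41 ± 0.06) and neurons (-0.84 ± 0.16) and had 0.08 ± 0.09 in liver bud progenitors, uncalled.

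**Figure D2:**
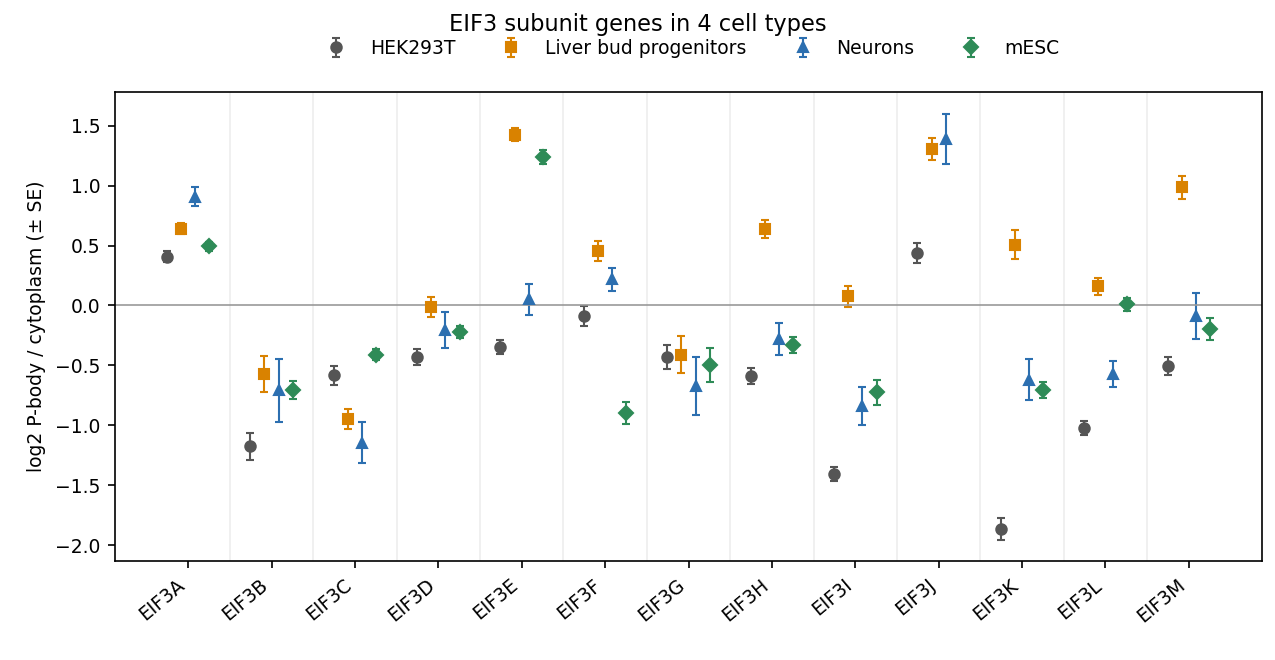
Log2 P-body to cytoplasm ratio (vertical axis, with SE from edgeR, 4 libraries per fit) of the EIF3 subunit genes in HEK293T, liver bud progenitors, neurons and mESC. EIF3A lies above 0 and EIF3C below 0 in all 4, while EIF3E ranges from -0.35 in HEK293T to 1.42 in liver bud progenitors; mESC has no gene named Eif3j, and EIF3C shares reads with its copy in the human cells.

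Levels per length, in CPM per kilobase of annotated transcript, spread widely among subunits of this complex. Over 12 human subunit genes, leaving out EIF3C and EIF3CL, the cytoplasm level ran from 15.7 for EIF3B to 162 for EIF3I in HEK293T, a 10.3-fold range, and the P-body level from 6.95 for EIF3B to 193 for EIF3A, a 27.8-fold range. The range was 12.3-fold in cytoplasm and 33.8-fold in P-bodies of liver bud progenitors, 14.5-fold and 23.0-fold in neurons, and 8.77-fold and 19.2-fold over 11 mouse genes. The range from the lowest to the highest subunit was thus wider in P-bodies than in cytoplasm for all 4 cell types, with no test. It rests on the extreme genes, as means of 2 libraries, and on the annotated transcript with the longest coding sequence. That transcript had 5047 bases for human EIF3M and 1283 for mouse Eif3m, so levels per length depend on this choice.

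Set against EIF2, EIF2B, EIF2AK, EIF4 and EIF4EBP pooled, EIF3 had the lower median change in 3 of 4 cell types. In HEK293T the EIF3 median was -0.50 and that of the other groups -0.26, a difference of -0.24 (SD between replicates 0.0442). The difference was -0.34 (SD 0.201) in neurons and -0.35 (SD 0.100) in mESC. In liver bud progenitors it was 0.07 (SD 0.105), within the spread of replicates, -0.02 without cytoplasm replicate 1 and 0.23 with near-identical copies summed, with 7 of 14 EIF3 genes and 12 of 29 others enriched and 4 and 3 depleted. In HEK293T 11 of 14 EIF3 genes and 15 of 29 others were depleted, in neurons 5 and 6, and in mESC 8 of 14 and 6 of 30. Of all genes tested, 22.8%, 14.1% and 20.6% were depleted in HEK293T, neurons and mESC. Liver bud progenitors had 21.4% of all genes enriched and 17.1% depleted. Genes of a group are not replicates, so these medians and counts are a description with no test.

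Within the cap-binding machinery, EIF4E and EIF4G1 moved in opposite directions in every cell type. EIF4E had 511 and 492 against 232 and 232 CPM in HEK293T (log2 1.11 ± 0.06, edgeR adjusted p = 2.1e-25) and 158 and 159 against 78.3 and 68.2 CPM in liver bud progenitors (log2 1.12 ± 0.08, edgeR adjusted p = 1.5e-19). In neurons it had 68.3 and 79.7 against 36.5 and 38.4 CPM (log2 0.98 ± 0.15, edgeR adjusted p = 2.5e-04), and in mESC Eif4e had 2218 and 2088 against 662 and 664 CPM (log2 1.70 ± 0.04, edgeR adjusted p = 6.2e-21), the highest change of a called member above 20 CPM there. Every P-body library lay above every cytoplasm library of its cell type. EIF4G1 had 189.7 and 193 against 456 and 469 CPM in HEK293T (log2 -1.27 ± 0.06, edgeR adjusted p = 8.2e-28) and 206 and 199 against 457 and 516 CPM in liver bud progenitors (log2 -1.26 ± 0.06, edgeR adjusted p = 1.0e-27). In neurons the values were 204 and 200.2 against 452 and 421 CPM (log2 -1.11 ± 0.09, edgeR adjusted p = 7.4e-07) and in mESC 274 and 282 against 395 and 396 CPM (log2 -0.51 ± 0.04, edgeR adjusted p = 3.7e-10). Here every cytoplasm library lay above every P-body library.

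**Figure D3:**
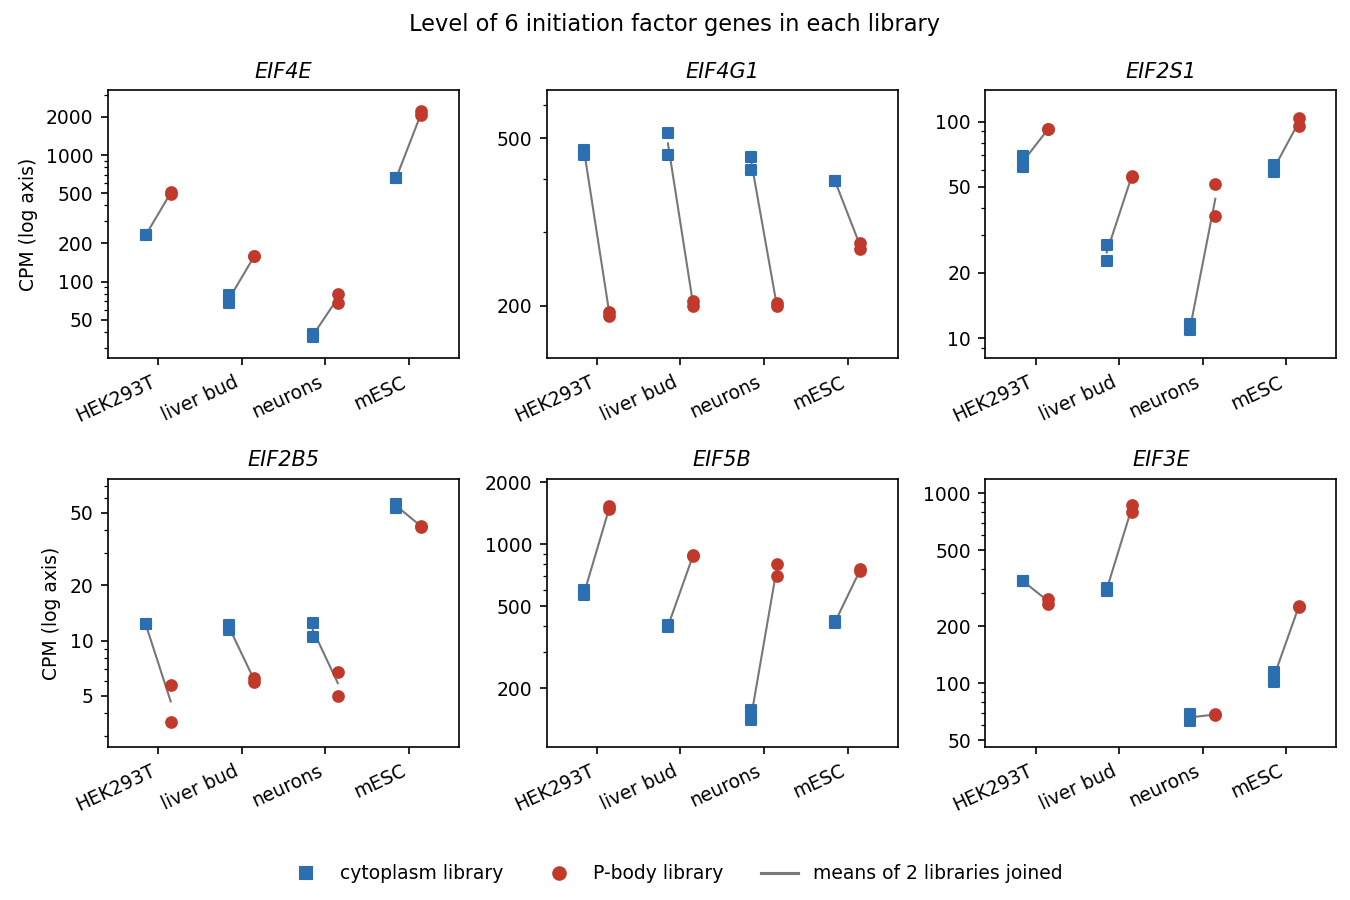
Level in CPM (log axes) of EIF4E, EIF4G1, EIF2S1, EIF2B5, EIF5B and EIF3E in each library, cytoplasm as squares and P-bodies as circles, with lines joining the means of 2 libraries per fraction; mESC values are those of the mouse genes. CPM were scaled within each cell type, so fractions compare within a cell type and not across. The lines of EIF4E, EIF2S1 and EIF5B rise to the P-body side in all 4 cell types and those of EIF4G1 and EIF2B5 fall.

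The related eIF4G proteins did not share the depletion of EIF4G1 everywhere. EIF4G2 (DAP5), which lacks the eIF4E-binding site, had 914 and 929 against 1832 and 1795 CPM in HEK293T (log2 -0.98 ± 0.05) and 1425 and 1463 against 1181 and 1184 CPM in liver bud progenitors (0.29 ± 0.04). It had 1294 and 1316 against 1596 and 1619 CPM in neurons (-0.30 ± 0.07) and 685 and 675 against 664 and 639 CPM in mESC (0.06 ± 0.04). EIF4G2 was thus depleted in HEK293T and neurons, enriched in liver bud progenitors and not called in mESC. The liver bud and neuron calls were lost under an alternative, and with library size only Eif4g2 of mESC was called depleted (-0.34). EIF4G3, the paralog closest to EIF4G1, had 109 and 100.3 against 157 and 161 CPM in HEK293T (-0.60 ± 0.07) and 317 and 338 against 282 and 269.8 CPM in liver bud progenitors (0.25 ± 0.06). The neuron libraries had 227 and 213 against 339.7 and 307 CPM (-0.55 ± 0.09) and those of mESC 71.2 and 65.9 against 84.5 and 84.8 CPM (-0.30 ± 0.07). It was depleted in all but liver bud progenitors, where it was enriched, a call that was lost under an alternative and without P-body replicate 2 (0.20, adjusted p = 0.058). The mESC call was lost without P-body replicate 2 (-0.22, adjusted p = 0.05).

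EIF4A1, the main helicase, was depleted in HEK293T, at 204 and 218 against 537 and 533 CPM (log2 -1.34 ± 0.06, edgeR adjusted p = 3.9e-29), and in neurons, at 106 and 95.7 against 181 and 190.0 CPM (log2 -0.88 ± 0.11, edgeR adjusted p = 3.5e-05). Liver bud progenitors had 194 and 197 against 187 and 199 CPM (log2 0.02 ± 0.07) and mESC 532 and 541 against 523 and 524 CPM (0.03 ± 0.04). Neither of these was called, although Eif4a1 of mESC was called depleted with library size only (-0.37). Its paralog EIF4A2 had 41.5 and 46.2 against 45.9 and 41.1 CPM in HEK293T (log2 0.01 ± 0.10, not called) and 103 and 107 against 68.4 and 61.0 CPM in liver bud progenitors (log2 0.71 ± 0.09, edgeR adjusted p = 1.7e-10). It had 45.5 and 40.2 against 55.4 and 65.9 CPM in neurons (log2 -0.50 ± 0.16, edgeR adjusted p = 0.03) and 169.7 and 147 against 85.0 and 89.6 CPM in mESC (log2 0.86 ± 0.07, edgeR adjusted p = 1.1e-10). The paralog was therefore enriched in liver bud progenitors and mESC and depleted in neurons, the last call being lost under an alternative and without either cytoplasm library (-0.64 to -0.39, adjusted p = 0.052 to 0.33). EIF4B, a cofactor of the helicase, was enriched in all 4 cell types (log2 0.64, 1.04, 0.56 and 0.34), although the mESC call was lost with library size only. EIF4H, a related cofactor, was depleted in HEK293T (-0.26) and mESC (-0.34).

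The other cap-binding proteins and the 4E-binding proteins were called in fewer cell types. EIF4E3, which binds the cap in another manner than EIF4E, had 18.3 and 17.9 against 23.8 and 21.3 CPM in HEK293T (log2 -0.32 ± 0.14) and 23.4 and 22.8 against 12.4 and 13.4 CPM in liver bud progenitors (log2 0.83 ± 0.17, edgeR adjusted p = 3.2e-05). Neurons had 10.4 and 22.2 against 18.3 and 20.1 CPM (-0.24 ± 0.32) and mESC 2.46 and 1.79 against 2.02 and 1.97 CPM (0.10 ± 0.40). Only the liver bud difference was called, and the neuron replicates of the P-body fraction differed from each other by more than the fractions did. EIF4E2 (4EHP), a cap-binding repressor, was enriched in neurons (0.59 ± 0.12) and not called elsewhere. EIF4EBP2, a 4E-binding protein, was depleted in HEK293T, at 145 and 145 against 443 and 439 CPM (log2 -1.60 ± 0.06, edgeR adjusted p = 5.3e-32), and in neurons, at 127 and 134 against 236 and 248 CPM (log2 -0.89 ± 0.10, edgeR adjusted p = 1.3e-05). It had 287 and 322 against 274 and 279.9 CPM in liver bud progenitors (0.14 ± 0.06) and 93.7 and 97.9 against 108 and 101 CPM in mESC (-0.12 ± 0.07), neither called. EIF4EBP1 was depleted in HEK293T, at 11.4 and 11.1 against 23.7 and 26.6 CPM (log2 -1.16 ± 0.15, edgeR adjusted p = 1.1e-09). Its other values were 9.08 and 5.59 against 6.59 and 6.58 CPM in liver bud progenitors, 4.63 and 4.15 against 3.97 and 4.70 CPM in neurons and 63.6 and 65.8 against 60.3 and 65.7 CPM in mESC, with fractions that overlapped each time.

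EIF5B, the GTPase that joins the ribosomal subunits, was the most enriched called member above 20 CPM in HEK293T and in neurons. It had 1478 and 1537 against 599.6 and 569.7 CPM in HEK293T (log2 1.37 ± 0.05, edgeR adjusted p = 3.3e-32) and 705 and 800.1 against 140.2 and 157 CPM in neurons (log2 2.34 ± 0.10, edgeR adjusted p = 4.8e-09). In liver bud progenitors it had 886 and 875 against 404 and 395 CPM (1.14 ± 0.05) and in mESC 740.2 and 760.3 against 423 and 417 CPM (0.84 ± 0.04). The fractions lay far apart in all 4. EIF5, which triggers GTP hydrolysis by eIF2, was enriched in liver bud progenitors (log2 0.83 ± 0.07) and mESC (1.04 ± 0.05) and not called in HEK293T (-0.13 ± 0.07) or neurons (0.27 ± 0.13).

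EIF5A, the hypusinated factor that relieves stalled ribosomes, and its paralog EIF5A2 went opposite ways. EIF5A had 92.5 and 84.8 against 266 and 297 CPM in HEK293T (log2 -1.67 ± 0.07, edgeR adjusted p = 4.5e-30) and 71.2 and 73.6 against 80.2 and 84.4 CPM in liver bud progenitors (log2 -0.19 ± 0.09, edgeR adjusted p = 0.092). It had 32.2 and 35.4 against 64.7 and 50.4 CPM in neurons (log2 -0.77 ± 0.17, edgeR adjusted p = 0.0043) and 80.0 and 91.7 against 132 and 138 CPM in mESC (log2 -0.66 ± 0.07, edgeR adjusted p = 1.3e-08). It was thus depleted in all but liver bud progenitors, where the difference was not called, and the neuron call was lost without cytoplasm replicate 1 (-0.59, adjusted p = 0.14). EIF5A2 had 29.9 and 33.4 against 21.7 and 22.0 CPM in HEK293T (log2 0.54 ± 0.13), 11.7 and 7.66 against 2.93 and 4.05 CPM in liver bud progenitors (1.45 ± 0.29) and 99.0 and 87.3 against 44.5 and 42.8 CPM in mESC (1.09 ± 0.08). All 3 were called enriched. In neurons it was near the floor of detection, at 0.993 and 1.29 against 0.850 and 0.300 CPM, and not called. EIF6, which keeps the ribosomal subunits apart, had 18.0 and 14.7 against 53.3 and 57.5 CPM in HEK293T (log2 -1.76 ± 0.12, edgeR adjusted p = 1.0e-19) and 19.4 and 18.6 against 17.4 and 14.7 CPM in liver bud progenitors (log2 0.25 ± 0.17, not called). Neurons gave 7.83 and 7.42 against 16.9 and 14.0 CPM (log2 -1.02 ± 0.30, edgeR adjusted p = 0.022) and mESC 27.0 and 26.9 against 39.6 and 38.1 CPM (log2 -0.53 ± 0.11, edgeR adjusted p = 2.2e-04). EIF6 was depleted wherever it was called, but its neuron call was lost under an alternative and without either cytoplasm library (-1.16 to -0.89, adjusted p = 0.1 to 0.3).

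Of the 5 noncoding symbols, EIF3J-DT, a transcript divergent from EIF3J, was the only one called in a fraction comparison, with 5.61 and 4.87 against 1.76 and 2.53 CPM in liver bud progenitors (log2 1.27 ± 0.37, edgeR adjusted p = 0.0035). The other 4 stayed at or under 2.32 CPM in every human library, and none of their differences was detectable at this depth.

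Many mRNAs of the translation apparatus, those of ribosomal proteins above all, start with a run of pyrimidines that couples their translation to growth signals. Start sites of the human members were read from RefSeq (GRCh38.p14), which gave a window for 44 of 53 coding members. The motif searched was a C that starts within 5 bases of the annotated start site and is followed by at least 4 bases that are each C or T, on the transcript strand only. It was found for 19 of 44 members, beside 27.7% of all genes of the human table that have a window and 85.5% of ribosomal protein genes. EIF3 had 6 of 8, EIF2 4 of 5, EIF4 5 of 12, EIF2B 0 of 5 and EIF2AK 0 of 3 genes with a match. In EIF1, EIF3C, EIF5 and EIF5A2, all counted as matches, the run lay wholly before the annotated start. The first 6 windows below hold the motif and the last 4 do not. They are shown because 4 of the first 6 (EIF3K, EIF3M, EIF2S3 and EIF4A2) were lower in neurons in the test against liver bud progenitors given further on. The last 4 are members without a match that are described above, and none of them was lower. Members without a match that were lower (EIF3I, EIF4A1, EIF4G3, EIF5A and EIF6) are not shown. The windows shown therefore do not tell how the run and that difference go together. Each window runs over 10 bases before the annotated start and 20 bases from it, 5′ to 3′ on the transcript strand, and capitals mark the run.
EIF3D: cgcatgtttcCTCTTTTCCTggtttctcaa
EIF3F: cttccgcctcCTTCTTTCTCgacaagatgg
EIF3K: tttccaccacCTCTTCCTgttcccgtcctt
EIF3M: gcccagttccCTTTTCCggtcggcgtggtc
EIF2S3: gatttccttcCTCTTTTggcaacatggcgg
EIF4A2: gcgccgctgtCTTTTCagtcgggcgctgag
EIF2B5: cagcttccttgcggaagtggtgaccgtgag
EIF2AK2: aggggaaaacgaaactgagaaccagctctc
EIF5B: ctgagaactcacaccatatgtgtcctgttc
EIF4E: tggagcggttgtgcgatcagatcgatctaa
These windows lie at chr22:36529147-36529176 (minus strand) for EIF3D, chr11:7987327-7987356 (plus) for EIF3F, chr19:38619178-38619207 (plus) for EIF3K, chr11:32583821-32583850 (plus) for EIF3M, chrX:24054946-24054975 (plus) for EIF2S3 and chr3:186783567-186783596 (plus) for EIF4A2. Those without the motif lie at chr3:184135348-184135377 (plus) for EIF2B5, chr2:37156961-37156990 (minus) for EIF2AK2, chr2:99337379-99337408 (plus) for EIF5B and chr4:98929114-98929143 (minus) for EIF4E. Each covers the edge of the promoter and the start of the first exon. A match describes these letters only.

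Liver bud progenitors and neurons came from the same stem cell line with the same library kind, so the difference of their P-body ratios was tested as an interaction over 8 libraries. Neurons had the lower ratio for 18 of 58 members and the higher ratio for 3, where 8.5% of all genes tested were lower and 9.21% higher. Library size alone gave 10 lower and 6 higher, and shifted the median of all genes by 0.36. The lower members included 6 of 14 EIF3, 5 of 12 EIF4 and 3 of 6 EIF5 and EIF6 genes, and none of the EIF2B or EIF2AK genes was called in either direction. The higher members were EIF5B, EIF2S1 and EIF3A. With library size only, 4 of the EIF3, 3 of the EIF4 and 0 of the EIF5 and EIF6 genes were lower, and EIF2AK1 was called higher. Without the ribosomal RNA genes EIF2AK4 was called lower. EIF5B alone was still called higher without liver bud P-body replicate 2, any of the 4 cytoplasm libraries, or the ribosomal RNA genes. The EIF3A call was lost whichever of the 8 libraries was left out (0.14 to 0.27, adjusted p = 0.11 to 0.29), and the EIF2S1 call with each left out except neuron P-body replicate 1 (0.41 to 0.91, adjusted p = 0.063 to 0.19). Of the lower members, 5 lost their call without at least 1 library, namely EIF2D, EIF3J-DT, EIF5, EIF5A and EIF6.

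EIF3E had a ratio of 0.05 in neurons and 1.42 in liver bud progenitors, a difference of -1.38 ± 0.11, edgeR adjusted p = 5.6e-07. For EIF4EBP2 the ratios were -0.89 and 0.14 (-1.04 ± 0.12, edgeR adjusted p = 1.6e-05). EIF5B stood at 2.34 against 1.14 (1.19 ± 0.11, edgeR adjusted p = 1.6e-06). EIF3E was enriched in liver bud progenitors and uncalled in neurons and EIF4EBP2 uncalled and depleted, while EIF5B was enriched in both and more so in neurons. EIF2S1 was likewise higher in neurons, at 1.97 against 1.17 (0.79 ± 0.25, edgeR adjusted p = 0.041). Other EIF3 subunits lower in neurons were EIF3H (-0.92), EIF3I (-0.93), EIF3K (-1.14), EIF3L (-0.73) and EIF3M (-1.08). Of the members with the pyrimidine run near their annotated start, 9 of 19 were lower in neurons and 0 higher. Of those without it, 5 of 25 were lower and 2 higher, beside 8.5% and 9.21% of all genes tested. Ribosomal protein genes, given as a median only, differed by -1.42, and the members by -0.19, a median that was 0.16 with library size only.

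**Figure D4:**
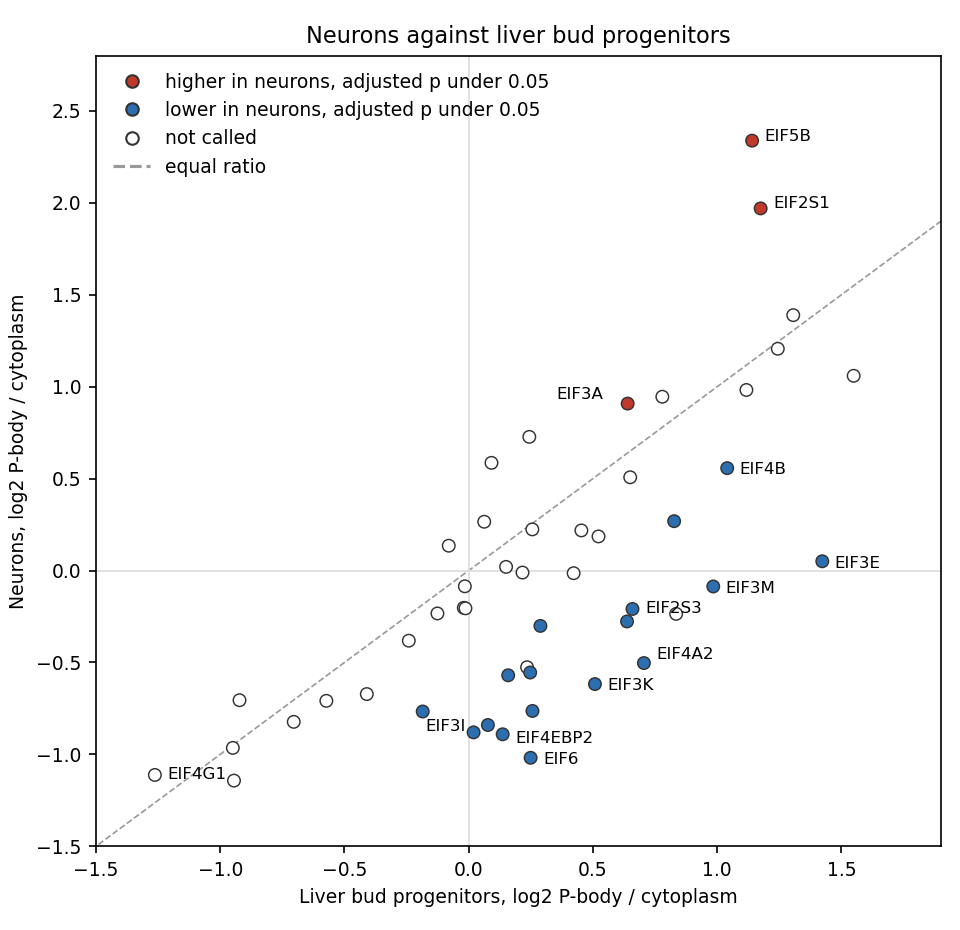
Log2 P-body to cytoplasm ratio in neurons (vertical axis) against liver bud progenitors (horizontal axis) for coding members with a mean of at least 1 CPM in both, coloured by the test of the difference. EIF5B, EIF2S1 and EIF3A lie above the line of equal ratio and EIF3E, EIF4A2, EIF3K, EIF4EBP2 and EIF6 below it.

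The levels in the cytoplasmic fraction behind these ratios, a pellet and not the whole cytoplasm, were compared directly. There, 15 of 58 members were higher in neurons and 17 lower, close to the 26% and 25.8% of all genes tested, and library size alone gave 6 and 28. EIF3E had 68.2 and 74.6 CPM in neuron cytoplasm and 295 and 288 in liver bud cytoplasm (-2.03 ± 0.09, edgeR adjusted p = 4.3e-33). EIF1AX had 30.0 and 39.3 against 203 and 191 CPM (-2.51 ± 0.11, edgeR adjusted p = 4.3e-34). Both were thus lower in neuron cytoplasm, as were 5 of the 6 EIF2 genes. EIF3F was higher, at 163 and 168 against 66.0 and 63.3 CPM (1.36 ± 0.10, edgeR adjusted p = 2.5e-21), and so was EIF3L (1.04 ± 0.08, edgeR adjusted p = 1.9e-18). EIF5B, more enriched in neuron P-bodies, was lower in neuron cytoplasm (-1.22), and EIF3L, with a lower ratio there, was higher. This comparison shares its cytoplasm libraries with the difference of ratios, so the values stand side by side and were not correlated.

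HEK293T P-body ratios were tested against those of the other human cells in the same way, with the reserve that library kind differs too. Against liver bud progenitors, 24 of 58 members were lower and 7 higher in HEK293T (all genes 12.5% and 15%). Scaling 8 libraries jointly moved the median difference of all genes by 0.23 from that of the separate fits. The 2 lower members with the smallest p were EIF3E (-0.35 in HEK293T and 1.42 in liver bud progenitors, difference -1.54 ± 0.08, edgeR adjusted p = 1.2e-20) and EIF4EBP2 (-1.60 and 0.14, -1.51 ± 0.09, edgeR adjusted p = 3.1e-19). The 2 higher ones were EIF2AK3 (0.87 and -0.08, 1.18 ± 0.14, edgeR adjusted p = 3.0e-09) and EIF1AD (0.69 and -0.24, 1.16 ± 0.15, edgeR adjusted p = 2.8e-08). Both EIF4EBP genes and 7 of 14 EIF3 genes were lower in HEK293T, while none of the EIF2B genes was called.

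Against neurons fewer members differed, with 8 lower and 4 higher in HEK293T (all genes 6.35% and 6.19%), and the joint scaling moved the median difference by 0.14. The split depended on the scaling, with 25 lower and 1 higher for library size only and 7 and 7 without the ribosomal RNA genes. Leaving out neuron P-body replicate 1 gave 13 lower, neuron P-body replicate 2 gave 8 higher, HEK293T P-body replicate 2 gave 1 higher and HEK293T cytoplasm replicate 2 gave 2 higher. EIF5B was lower in HEK293T (1.37 against 2.34, difference -0.83 ± 0.11, edgeR adjusted p = 9.4e-05), as was EIF4G2 (-0.98 against -0.30, -0.54 ± 0.08, edgeR adjusted p = 2.9e-04). EIF1AD (0.69 against -0.38, 1.21 ± 0.21, edgeR adjusted p = 0.0011) and EIF2AK4 (0.70 against 0.19, 0.65 ± 0.14, edgeR adjusted p = 0.0058) were higher, the last call being lost without HEK293T P-body replicate 2 (0.61, adjusted p = 0.051).

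GC content ordered the members in the same way in all 4 cell types. Among those with a mean of at least 20 CPM, Spearman's rho between the GC content of the transcript and the log2 ratio was -0.58 over 45 genes in HEK293T, -0.83 over 39 in liver bud progenitors, -0.67 over 38 in neurons and -0.80 over 45 in mESC. For GC content at the third codon position rho was -0.68, -0.80, -0.75 and -0.70, and for transcript length between 0.17 and 0.24. These are descriptions across genes that share libraries and base composition, with no p. The study reports that P-bodies favoured AU-rich mRNAs among all transcripts in human, mouse and chicken cells. No rho over all genes was computed here, so the order is not shown to be particular to the members. The median GC content was 41.3% for human EIF2 genes, 45.3% for EIF2AK, 47.8% for EIF2B, 49.7% for EIF4 and 51.5% for EIF3. Among the genes described above, EIF5B (38.4%) and EIF3E (37.3%) lay at the low end and EIF4G1 (56.7%), EIF5A (57.0%) and EIF6 (60.3%) at the high end. EIF3E was nevertheless depleted in HEK293T, and the paralogs EIF5A and EIF5A2 (33.9%) lay far apart in GC content as in ratio.

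**Figure D5:**
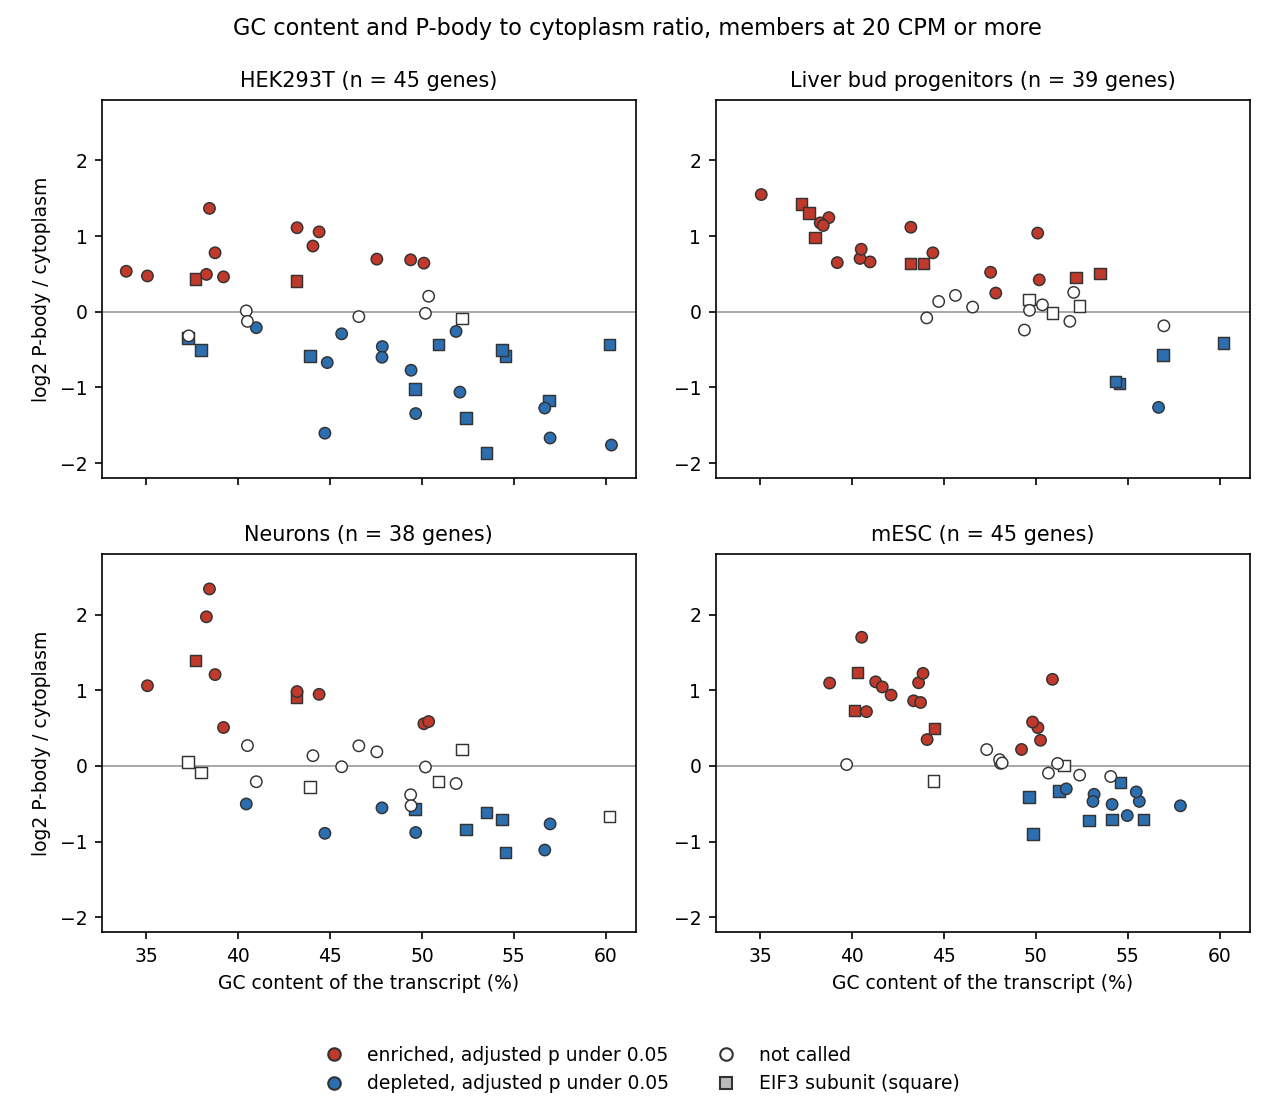
Log2 P-body to cytoplasm ratio (vertical axes) against the GC content of the transcript in percent (horizontal axes) for members with a mean of at least 20 CPM in HEK293T, liver bud progenitors, neurons and mESC, EIF3 subunits as squares. Ratios fall with GC content in all 4 panels, and EIF3 subunits lie along the whole range.

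Among other genes of the pathway, 26 partners and regulators of initiation had 12 enriched and 8 depleted in HEK293T, 13 and 9 in liver bud progenitors, 10 and 8 in neurons and 12 and 7 in mESC. Of all genes tested, 19.3% were enriched and 22.8% depleted in HEK293T and 21.4% and 17.1% in liver bud progenitors. Neurons had 14.6% and 14.1% and mESC 25.8% and 20.6%, shares that also apply to the elongation factors below. PABPC1, the poly(A)-binding protein that eIF4G contacts, had log2 changes of 0.24, 1.08, -0.53 and 0.87 in the same order, all called. LARP4, which binds poly(A) and PABPC1, was enriched in all 4 (0.49, 1.32, 1.92 and 1.07). The 12 elongation and termination factors had 4 enriched and 7 depleted in HEK293T, 7 and 2 in liver bud progenitors, 2 and 5 in neurons and 3 and 6 in mESC. EEF1A1, which brings aminoacyl-tRNA to the ribosome, changed by -1.66, 0.94, -0.58 and -0.28 and EEF2, which moves the ribosome along, by -1.27, -0.53, -1.24 and -0.49. EEF1B2 and EEF1G, exchange factor subunits for EEF1A1, changed by -2.36, 1.11, -1.28 and -0.59 and by -1.20, 0.32, -0.66 and -0.29. All values of these 6 genes were called, and EEF1A1, EEF1B2 and EEF1G were enriched in liver bud progenitors and depleted elsewhere. The medians of ribosomal protein genes were -1.62, 0.92, -0.48 and -0.68.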

How the data were processed

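RNA of sorted P-bodies and of presort cytoplasm was sequenced in 16 libraries. The authors deposited whole-number counts per gene symbol for hg38 and mm10, one table per organism, with genes under 10 counts over all samples removed and replicates not pooled. Per the study's methods snapTotal-seq libraries were quantified with salmon and Smart-seq libraries with featureCounts, and the tables do not say which tool made the polyA columns. Tables of the authors' own log2 fold changes and p-values were not used. Groups were taken from the labels, and 0 columns belonged to samples that could not be mapped.

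Each fraction comparison was a fit of the 4 libraries of a cell type over the whole table in edgeR 4.0.16 (R 4.3.3, limma 3.58.1) with TMM scaling, glmQLFit and glmQLFTest, two-sided, with Benjamini-Hochberg adjustment over all genes with a count and a threshold of 0.05. Differences between cell types were tested as an interaction over 8 libraries. SE is the log2 change divided by the square root of F. CPM are printed after TMM scaling. Alternatives were library size only, RLE size factors, DESeq2 1.42.0, a filter on low counts (filterByExpr), a replicate block, a fit without ribosomal RNA genes, a single fit of the 12 human libraries, leaving out each library, and near-identical copies summed.

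Members, gene lists and the genes named were chosen with earlier results of these data known. Values are given for a list of 23 factors and for the 2 called members per direction and fraction comparison with the largest change, among those above 20 CPM on average whose libraries did not overlap. For each difference between cell types the 2 members per direction with the smallest p are given. The other genes named are called members or members of the same group. Pathway genes outside the members were the 6 with the smallest p in a fraction comparison. GC content and length came from GENCODE (human 44, mouse M21), start sites from RefSeq GRCh38.p14. GC content was found for 52 of 58 human and 52 of 54 mouse members. The comparison with all human genes was void, since under 80% of those had a value. In mouse 92.2% of genes had a value, and the median GC content was 49.8% over members and 49.8% over all. The fits were tested on simulated data in which the log2 value of 200 genes, drawn only from those above a minimum mean CPM, was moved by 1.58. The share recovered was 79.5 to 100% over the 8 comparisons, with 7 to 30 false calls each. Recovery of smaller changes, or of genes below that minimum, was not tested. Figures were drawn with matplotlib 3.10.9.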

Additional observations from a re-analysis of the deposited data

Results flagged for a closer look

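The P-body to cytoplasm ratio differed between cell types by the test of the difference itself (edgeR interaction, adjusted p under 0.05) for the members below, with the log2 difference in parentheses. Between neurons and liver bud progenitors the ratio was higher in neurons for EIF2S1 (0.79), EIF3A (0.26) and EIF5B (1.19). It was lower in neurons for EIF2D (-1.03), EIF2S3 (-0.88), EIF3E (-1.38), EIF3H (-0.92), EIF3I (-0.93), EIF3K (-1.14), EIF3L (-0.73), EIF3M (-1.08) and EIF4A1 (-0.91), as well as for EIF4A2 (-1.21), EIF4B (-0.49), EIF4EBP2 (-1.04), EIF4G2 (-0.60), EIF4G3 (-0.81), EIF5 (-0.56), EIF5A (-0.59) and EIF6 (-1.27). The noncoding EIF3J-DT was lower as well (-2.75), from levels of at most 5.61 CPM in liver bud progenitors.

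Between HEK293T and liver bud progenitors the named members were EIF2AK3 (1.18) and EIF1AD (1.16), higher in HEK293T, and EIF3E (-1.54) and EIF4EBP2 (-1.51), lower. Between HEK293T and neurons they were EIF1AD (1.21) and EIF2AK4 (0.65), higher in HEK293T, and EIF5B (-0.83) and EIF4G2 (-0.54), lower. Total RNA and polyA RNA libraries cannot be told apart from cell type in both. No group held 4 or more libraries, so no library was compared with the rest of its group.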

How the results depend on the processing

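Library size only shifted the median log2 value of all genes by -0.40 in mESC, -0.13 in HEK293T, 0.16 in neurons and -0.19 in liver bud progenitors, by 0.36 for neurons minus liver bud progenitors, -0.17 for HEK293T minus liver bud progenitors, -0.43 for HEK293T minus neurons and -0.38 for the cytoplasm comparison, and leaving out ribosomal RNA genes shifted HEK293T minus neurons by 0.14. It gave 11 depleted members in liver bud progenitors and 28 in mESC, 6 members higher and 10 lower in neurons than in liver bud progenitors, 1 higher and 25 lower in HEK293T than in neurons, and 6 higher and 28 lower in neuron than in liver bud cytoplasm. Without ribosomal RNA genes 1 member was higher in neurons than in liver bud progenitors and 7 were higher in HEK293T than in neurons. The single human fit gave 25 depleted members in neurons and 4 higher in HEK293T than in liver bud progenitors, and filterByExpr 14 lower in HEK293T than in neurons. Summing near-identical copies moved the EIF3 minus other difference of liver bud progenitors to 0.23. The replicate block gave 13 lower members in HEK293T than in neurons, against 8 without it, and moved no other count of calls by over 1.5 times. Replicate numbers did not pair the fractions in the labels or the data, with correlations of the deviations of same-numbered libraries of -0.04, 0.01, 0.03 and 0.02 for HEK293T, liver bud progenitors, neurons and mESC in that order. The other 174 counts stayed within 1.5 times of the reported ones.

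Leaving out 1 library at a time gave 9 to 20 depleted members in neurons (20 without P-body replicate 1), 1 to 3 higher and 13 to 26 lower in neurons than in liver bud progenitors (1 higher without liver bud P-body replicate 2 or any cytoplasm library), and 1 to 8 higher and 6 to 13 lower in HEK293T than in neurons (8 higher without neuron P-body replicate 2, 1 without HEK293T P-body replicate 2, 2 without HEK293T cytoplasm replicate 2, and 13 lower without neuron P-body replicate 1). The EIF3 minus other difference ran from -0.25 to -0.18 in HEK293T and from -0.017 to 0.10 in liver bud progenitors. With a library left out, the lone library of its group was assumed to vary like the others.

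Of 39 values of single genes that changed sign, 37 belonged to genes not called in the reported fit. Called genes that changed sign did so in mESC with library size only, Eif2ak1 (-0.19) and Eif2s3x (-0.055). In HEK293T EIF2AK1 gave 0.026 with DESeq2 and 0.026 with RLE size factors, 0.064 in the single fit and -0.15 to 0.016 without 1 library, and EIF4A2 -0.12 with library size only and -0.069 to 0.13 without 1 library. In liver bud progenitors library size only gave -0.12 for EIF2AK1, -0.17 for EIF4A1, -0.036 for EIF4EBP1 and -0.049 for EIF4EBP2, filterByExpr -0.027 for EIF2AK1 and -0.069 for EIF4A1, and EIF4A1 was -0.0028 without ribosomal RNA genes and -0.0020 in the single fit. Without 1 library EIF2AK1 ran from -0.016 to 0.096, EIF4A1 from -0.025 to 0.032 and EIF4EBP1 from -0.23 to 0.46. In neurons the single fit gave -0.060 for EIF3E and -0.090 for EIF4EBP1, and without 1 library EIF3E ran from -0.026 to 0.10, EIF4E3 from -0.89 to 0.21 and EIF4EBP1 from -0.11 to 0.13. In mESC library size only gave -0.37 for Eif2ak3, -0.37 for Eif4a1, -0.30 for Eif4e3, -0.36 for Eif4ebp1 and -0.34 for Eif4g2. All of these but Eif4e3 were called depleted under that scaling (edgeR adjusted p = 6.7e-09 to 0.0081). In mESC filterByExpr gave -0.054 for Eif2ak3, -0.051 for Eif4a1, -0.047 for Eif4ebp1 and -0.024 for Eif4g2. Without 1 library Eif2ak3 ran from -0.070 to 0.14, Eif4e3 from -0.15 to 0.33 and Eif4ebp1 from -0.022 to 0.10. The cause was not tested. With 2 libraries a group, low members had the widest errors, and a call missed there does not show equal levels.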
